A study of Sus scrofa with 8 samples.

Results

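Giant genes were defined as protein-coding genes whose row in the gene annotation deposited with the study covered 500 kb or more from start to end, on the pig assembly Sscrofa11.1. They numbered 258 of 20679 protein-coding genes, or 1.25%. The annotation served as the mapping reference for droplet-based 3′ single-cell RNA sequencing of tracheal submucosal glands (SMGs) from newborn CFTR-/- pigs (CF, 4 libraries) and newborn wild-type pigs (WT, 4 libraries). CFTR-/- pigs lack functional cystic fibrosis transmembrane conductance regulator, the anion channel that is defective in cystic fibrosis. The same gene models served both genotypes, so the values below describe the pig genome and do not differ between CF and WT libraries, and expression was not analysed here. The members were chosen by span alone, so spans, and intron lengths and exonic shares that are parts of a span, are given as descriptions.

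In a gene of this size nearly all of the transcribed sequence is intron, which the spliceosome removes while RNA polymerase is still moving along the gene. The exons that remain join into the mRNA. In mammals many of the longest genes encode adhesion molecules, receptors and scaffolds that are best known from neurons and muscle, and several of them cover common fragile sites, which are regions prone to breakage when DNA replication is slowed.

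The widest member was TENM2, a teneurin (a transmembrane adhesion protein that binds latrophilins across the synapse), at chr16:55624273-59084150. It spanned 3.46 Mb, and its longest coding transcript had 41 exons, coding and noncoding, and 8394 coding bases. DMD, which encodes dystrophin, the link between the cytoskeleton of muscle fibers and the surrounding matrix, spanned 2.62 Mb at chrX:27028223-29650728 in 78 exons with 11142 coding bases. TENM3, a second teneurin, spanned 2.58 Mb at chr15:41818190-44401747. RBFOX1, a splicing regulator, spanned 2.27 Mb at chr3:34938703-37209772 with only 1734 coding bases. PTPRD, a receptor tyrosine phosphatase, followed with 2.18 Mb, MACROD2, an ADP-ribosylhydrolase, with 2.05 Mb, and CNTNAP2, a neurexin-like protein of myelinated axons, with 2.04 Mb. These 7 genes were the members of 2 Mb or more. DLG2 (a synaptic scaffold, 1.97 Mb), LRP1B (a lipoprotein receptor relative, 1.89 Mb), CSMD1 (a complement-control domain protein, 1.88 Mb), CTNNA3 (an alpha-catenin, 1.78 Mb), ROBO2 (a SLIT receptor, 1.67 Mb), NRXN3 (a neurexin, 1.65 Mb), DCC (a netrin receptor, 1.57 Mb) and THSD7B (a thrombospondin-domain protein, 1.52 Mb) completed the 15 widest. In all, 61 members spanned 1 Mb or more.

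**Figure D1:**
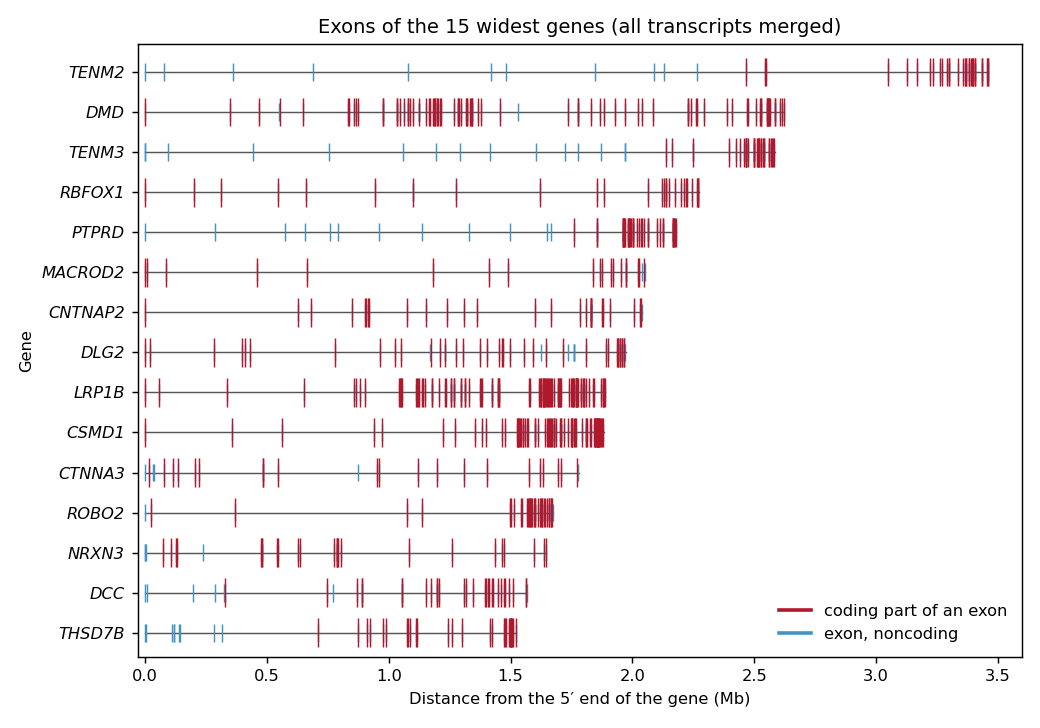
Exon maps of the 15 widest genes, drawn from the 5′ end of each gene (horizontal axis, distance in Mb), with coding parts of exons as tall red marks and noncoding exons as short blue marks, all transcripts of a gene merged. TENM2, TENM3 and PTPRD began with a long run of noncoding exons, whereas DMD and LRP1B were coding from end to end.

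At the lower end, members just above the threshold included FAM19A2 (501549 bases), KCNH7 (501689 bases), DIAPH3 (502120 bases) and PLXNA4 (502572 bases). Just under the threshold lay BMPR1B (499194 bases), SHANK2 (499107 bases), MTUS2 (496219 bases), FGF13 (495501 bases) and CDH4 (494919 bases). The median span of members was 689 kb, with quartiles of 568 and 974 kb, against a median of 19.2 kb over the 20674 protein-coding genes that had a coding transcript. The spans of members added up to 215 Mb of 1160 Mb for all protein-coding genes, or 18.5%. On the assembled chromosomes the members covered 214 Mb of 2435 Mb, or 8.78% of the sequence.

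The label held for most models and not for all. The gene row matched the outermost exon ends in all 258 members, and 252 members had a single coding transcript that alone covered 500 kb. The distance from the first to the last coding base reached 500 kb in 199 members. In 6 members no coding transcript was that wide. Among them, MTERF1, a mitochondrial transcription factor, had a gene row of 566 kb and a widest coding transcript of 8.21 kb, and the uncharacterized LOC106506082 had 671 kb and 5.48 kb. CCDC85A, C9H11orf87, LMNTD1 and LOC106508546 had widest coding transcripts of 207, 324, 469 and 397 kb. In MARCH1, a membrane-bound ubiquitin ligase with a gene row of 576 kb, the transcript with the longest coding sequence covered 3.47 kb, and the wide transcripts encoded less. Assembly gaps took up little of these spans: 3 members, AUTS2, SORCS2 and LOC102158035, held 1 gap each, and the 3 gaps together were 300 bases of N in the assembly.

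Coding length and exon number were not used to choose the members. The longest coding transcript of a member had a median of 18 exons (quartiles 12 and 28), against 17 in the 993 genes of 200 to under 500 kb and 7 in all protein-coding genes. Median coding length was 2802 bases in members, 2529 bases in genes of 200 to under 500 kb and 1218 bases in all protein-coding genes. Proteins of 1000 residues or more came from 117 members (45.3%), against 40.7% of genes of 200 to under 500 kb and 2471 of 20674 genes in all (11.95%). Proteins of 500 residues or fewer came from 52 members (20.2%), against 23.2% of genes of 200 to under 500 kb and 61.2% of all genes. The mean coding exon had a median of 153 bases in members, 148 bases in genes of 200 to under 500 kb and 167 bases in all genes. The median number of annotated coding transcripts was 5.5 in members, 4 in genes of 200 to under 500 kb and 1 in all genes, and KCNMA1, the BK potassium channel, had the most with 51. Among the members, span and coding length were nearly unrelated in rank (Spearman's rho = 0.07 across 258 genes, which are not independent replicates). Over all 20674 genes rho was 0.56. Choice by span narrows the range of spans among members, which alone can lower rho. These values are therefore not directly comparable.

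**Figure D2:**
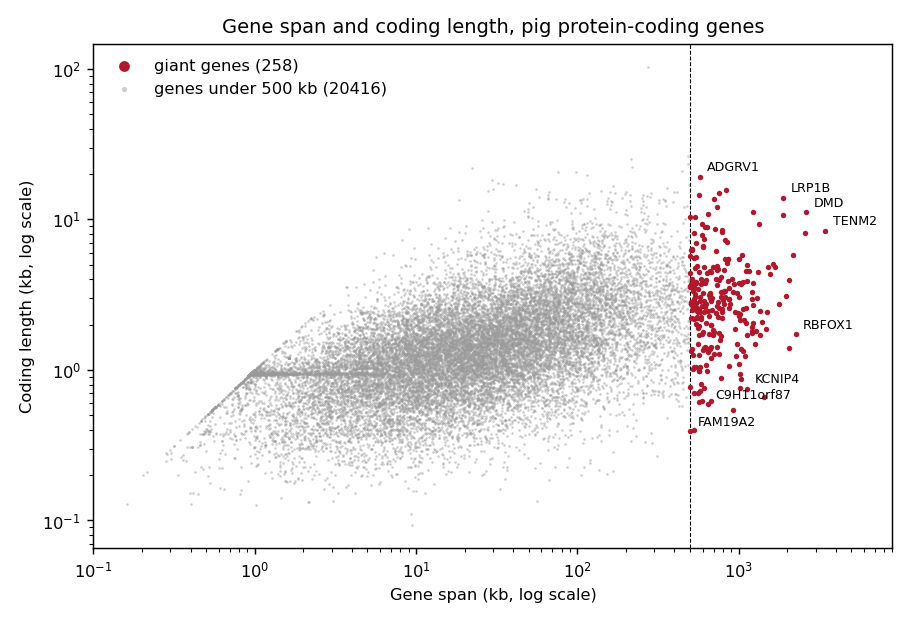
Gene span (horizontal axis, kb, log scale) against coding length of the longest coding transcript (vertical axis, kb, log scale), with the 258 giant genes as red points right of the dashed line at 500 kb and the other 20416 genes in grey. Coding lengths of giant genes ran from 393 bases (FAM19A2) to 19191 bases (ADGRV1).

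At 1 extreme were very large proteins cut into many exons. ADGRV1, an adhesion G protein-coupled receptor of sensory hair cells, had the longest coding sequence (19191 bases, 6397 residues) in 91 exons over 574 kb. The ryanodine receptors RYR2 and RYR3, which release calcium from the sarcoplasmic and endoplasmic reticulum, had the most exons, 107 and 104, with 14955 and 14607 coding bases. LRP1B had 92 exons and 13938 coding bases, and UTRN, the dystrophin relative utrophin, had 74 exons and 10320 coding bases. FAT3, a giant protocadherin, reached 13662 coding bases in 26 exons.

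At the other extreme were small proteins from very large genes. FAM19A2 and FAM19A1, which encode small secreted chemokine-like proteins, had 393 and 399 coding bases, enough for 131 and 133 residues, in spans of 502 and 527 kb. IMMP2L, a subunit of the mitochondrial inner membrane peptidase, had 543 coding bases in 923 kb. The next shortest coding sequences were those of C9H11orf87 (594 bases) and NKAIN3, a partner of the sodium pump (609 bases). FHIT, a dinucleoside hydrolase, encoded 660 coding bases in 1.44 Mb. HS6ST3 and HS3ST4, sulfotransferases that modify heparan sulfate, had 2 exons each, so that a single intron of 669 and 510 kb made up 98.8% and 99.5% of the gene. MARCH1 was also represented by 2 exons, and LRRTM4, MTERF1, LHFPL3 and LOC106506082 by 3, as was FAM155A, an auxiliary subunit of the NALCN channel.

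Long introns, by construction, filled these genes. The longest intron of a member had a median of 221 kb (quartiles 145 and 341 kb), against 95.9 kb in genes of 200 to under 500 kb that had an intron, and 7.63 kb in all genes with one. It was 100 kb or longer in 233 of 258 members (90.3%), against 47.4% of genes of 200 to under 500 kb and 3.97% of all genes. Of 1222 introns of at least 100 kb in the whole annotation, 565 (46.2%) lay in members, which held 3.03% of all 185193 introns. The 26 introns of 500 kb or more were all in members, which a gene row under 500 kb could not have held. Short introns were present in the same genes: 618 of the 5616 introns of members were under 1 kb, against 74956 of all 185193 introns (40.5%). A few introns carried most of the length. In the median member 2 introns held 50% of the intron bases, and the same median was found over all genes with introns.

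**Figure D3:**
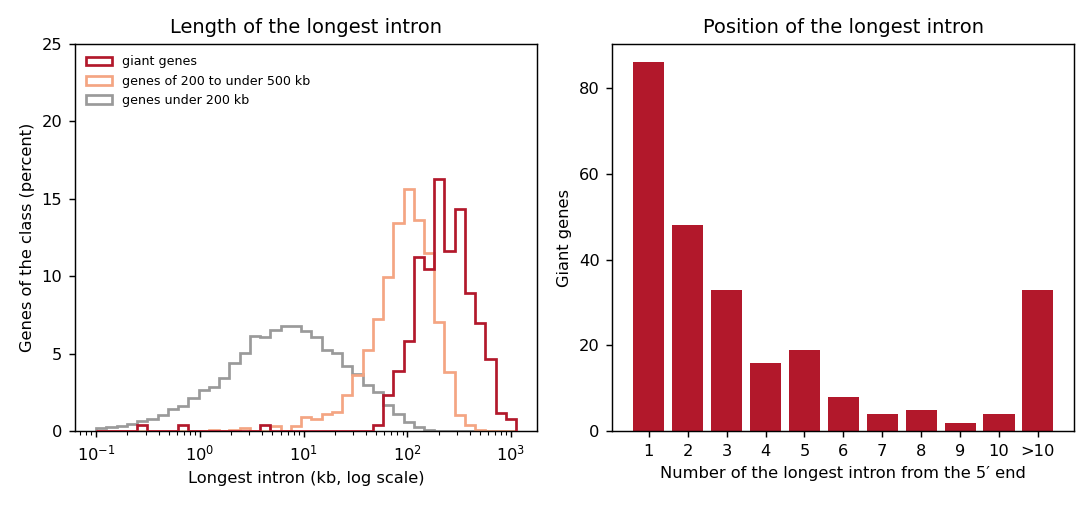
Left, the share of genes (vertical axis, percent of each class) by length of the longest intron (horizontal axis, kb, log scale) in giant genes, in genes of 200 to under 500 kb and in genes under 200 kb. Right, the number of giant genes by the position of the longest intron, counted from the 5′ end, with 86 genes at intron 1 and 33 beyond intron 10.

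The longest introns are listed here with their splice junctions, because these are the sites that the spliceosome must pair over the greatest distances. KCNIP4, a calcium-binding partner of Kv4 potassium channels, had the longest, intron 1 of 996 kb at chr8:15350410-16346109 on the minus strand, 87.8% of its span. Next came intron 1 of NRG1, the growth factor neuregulin 1 (895 kb, chr15:52791643-53687031, minus strand), intron 1 of ROBO2 (770 kb, chr13:177901844-178671458, minus strand), intron 2 of LRRTM4, a leucine-rich repeat protein of excitatory synapses (752 kb, chr3:66132761-66884518, plus strand), intron 1 of CADM2, an immunoglobulin-like adhesion molecule (739 kb, chr13:170013764-170752364, minus strand), and intron 7 of GPC5, a glypican (696 kb, chr11:61450111-62146080, plus strand). Intron 1 of PDE4D, a cAMP phosphodiesterase, was 675 kb, intron 1 of HS6ST3 was 669 kb, intron 8 of WWOX, an oxidoreductase with WW domains, was 668 kb, and intron 1 of DMD was 649 kb (chrX:29001535-29650486, minus strand). Each sequence below is 30 bases of the Sscrofa11.1 assembly, 5′ to 3′ on the strand of the gene, with 10 coding bases of the exon and 20 bases of the intron. The first and the last 2 bases of the intron are in capitals.
KCNIP4 intron 1, donor: tccacaggcgGTaggatgcaatacgcactg
KCNIP4 intron 1, acceptor: acgcatcccatatcttctAGgtttcctcta
NRG1 intron 1, donor: aagcggtgcgGTaagttcctggccctgcgg
NRG1 intron 1, acceptor: ccttctcttttcttttttAGccttgcctcc
ROBO2 intron 1, donor: tggaaaggggGTaagtgatgatgaaagttt
ROBO2 intron 1, acceptor: cattctgtcccatttcgtAGgatctcgtct
LRRTM4 intron 2, donor: ggaatgtgagGTatgaaccatgatcctcct
LRRTM4 intron 2, acceptor: tttttctttctcataaccAGatcctacacc
CADM2 intron 1, donor: ctgctacaagGTaatccccgccccaccgcg
CADM2 intron 1, acceptor: caatctttccttggtaccAGctgctgcttc
GPC5 intron 7, donor: atcacagactGTaagtgtatgactctaaca
GPC5 intron 7, acceptor: tttctcatttgcctctacAGggatacccga
DMD intron 1, donor: agccgcgctgGTaggaccttgctgttttgc
DMD intron 1, acceptor: tctttttttttacattgtAGatgaaagaga

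All 7 began with GT and ended with AG, the bases that the major spliceosome reads. Over all members the longest intron had both in 255 of 258 genes (98.8%, exact 95% interval 96.6% to 99.8%), against 98.6% of the longest introns of all genes. Intervals here and below treat genes as independent, which related genes are not, and are no test between classes. The 5-base donor GTAAG, as in NRG1, ROBO2 and GPC5 above, opened 37.3% of the 5616 introns of members and 26.8% of all introns. The donor GTGAG opened 17.1% of introns of members and 26.7% of all. In genes of 200 to under 500 kb, GTAAG opened 33.5% of introns and GTGAG 18.2%, nearer to members than to all introns. Intron length went with part of the difference between members and all genes. GTAAG opened 28.8% of the introns under 1 kb in members and 20.3% of those in all genes. At 1 to 10 kb these shares were 33.5% and 30.1%, and at 10 to 100 kb they were 43.3% and 36.3%. Among introns of 100 kb or more they were 43.2% and 42.4%, but members held 565 of those 1222 introns. The 19 bases before the AG were 77.0% pyrimidine on average in members and 75.9% in all introns.

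Position within the gene was also described. The longest intron was intron 1 in 86 of 258 members (33.3%). Among genes with an intron, the share was 33.0% in those of 200 to under 500 kb and 42.8% in all. The longest intron was one of the first 3 in 167 members (64.7%, exact 95% interval 58.6% to 70.6%), against 67.1% and 73.7% in these classes. Genes with few introns place any intron among the first 3 more often. In transcripts with 7 or more introns the share was 61.9% in 231 members, 64.8% in genes of 200 to under 500 kb and 61.3% in all genes. First introns of members had a median of 77.9 kb, and introns after the third had a median of 5.88 kb. Exceptions lay far downstream: ADGRV1 had its longest intron at number 84 of 90, UTRN at number 50 of 73 and NBEA, a trafficking protein of neurons, at number 42 of 59. WWOX and GPC5 had theirs as the last intron. In 221 members (85.7%) the longest intron separated coding exons. Among genes with an intron, the share was 83.9% in those of 200 to under 500 kb and 82.0% in all.

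In some members the coding sequence filled only a small part of the span. The start codon lay past the midpoint of 23 genes (8.91%), against 8.01% of all genes. The coding sequence lay in 1 exon in 4 of 258 members (1.55%). The share was 0.91% in genes of 200 to under 500 kb and 15.3% in all genes. So placed were the coding bases of LINGO2 and LRRC4C, both leucine-rich repeat proteins of neurons, of B3GALT1, a galactosyltransferase, and of C9H11orf87. For LINGO2 these were 1818 bases in a gene of 1.29 Mb and for LRRC4C 1920 bases in 1.22 Mb, so that noncoding exons and their introns made up 99.8% of LRRC4C before its start codon. In TENM2, TENM3 and PTPRD, coding sequence began late as well and covered 28.7%, 17.2% and 19.1% of the span from its first to its last base. In DMD, RBFOX1 and LRP1B it covered 99.9% of the span.

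Exons of all transcripts, merged, made up a median of 1.33% of the span (quartiles 0.82% and 2.16%), against 2.72% in genes of 200 to under 500 kb and 16.4% in all genes. Among the lowest shares were those of the uncharacterized LOC102158035 (0.14%), C8H4orf22 (0.18%), SMYD3, a lysine methyltransferase (0.21%), and LOC100514494, annotated as schwannomin-interacting protein 1 (0.31%). The highest were those of LOC106508546 (8.42%), WWOX (7.73%), ZBTB20, a zinc-finger repressor (7.47%), MAST4, a kinase (6.49%), and ELMO1, a regulator of Rac (5.93%). The 3′ UTR, the part of an mRNA nearest to the reads of a 3′ library, had a median of 2505 bases in members, 1897 bases in genes of 200 to under 500 kb and 675 bases in all genes. It was longest in LPP, a focal adhesion protein, at 15750 bases. The authors' edits touched 2 members. CDH13, T-cadherin, gained 1510 exon bases and spanned 1.02 Mb, and ZBTB20 lost 19970 exon bases and spanned 793 kb, against 813 kb in RefSeq. The other 256 members had the exon bases and names of RefSeq.

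By function, the members were sorted into 9 classes by hand, after the list was known. The largest held 46 signaling enzymes, ubiquitin ligases, small GTPase regulators and scaffolds, with a median span of 632 kb. Cell adhesion and synapse-organizing proteins made up 44 members and had the widest median span, 995 kb, and a median longest intron of 320 kb. Guidance, growth factor, phosphatase and G protein-coupled receptors with their secreted ligands made up 35 members, with the longest median coding sequence (3921 bases). Proteins of the cytoskeleton, vesicle traffic and cilium numbered 30, and had the shortest median longest intron, 145 kb, in a median of 26 exons. Ion channels, transmitter receptors, transporters and their partners numbered 28. Transcription, chromatin and RNA-binding proteins numbered 27, with a median of 13 exons and 2244 coding bases. Extracellular matrix proteins, proteoglycans and glycan enzymes numbered 18, enzymes of metabolism, mitochondria and DNA repair 13, and 17 members were assigned no role.

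Gene families were often split by size. Across 52 families and gene lists compiled from textbook knowledge, 333 genes were found by symbol. Of these 333 genes 97 were members, against 1.25% of all protein-coding genes, and the 97 were 37.6% of all 258. The sets were compiled with earlier results known, so this is not an independent count. Genes at common fragile sites, genes of the largest proteins and the airway genes below are lists, not families. All found genes passed 500 kb in 4 families, and 8 sets had none, the airway list among them. The 4 teneurins were all members, and their coding lengths were alike (8166 to 8562 bases) while their spans were not: TENM2 and TENM3 spanned 3.46 and 2.58 Mb, TENM1 and TENM4 788 and 786 kb. The CSMD proteins CSMD1, CSMD2 and CSMD3 encoded 10680, 10815 and 11121 bases in 70, 71 and 71 exons, over 1.88 Mb, 647 kb and 1.22 Mb. The 4 IgLON proteins found, small GPI-anchored adhesion molecules of neurons, were OPCML (1103 kb), NTM (1002 kb), NEGR1 (872 kb) and LSAMP (629 kb), with 1062 to 1236 coding bases.

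Other families showed the same protein plan in genes of very unequal size. RYR2 and RYR3 spanned 755 and 569 kb, whereas RYR1, the ryanodine receptor of skeletal muscle, encoded 15093 bases in 105 exons within 119 kb. The longest intron was 214 kb in RYR2 and 176 kb in RYR3, against 13.7 kb in RYR1. Among neurexins, the presynaptic partners of neuroligins, NRXN3 spanned 1.65 Mb with 5079 coding bases, whereas NRXN2 spanned 99.4 kb with 4788 coding bases. Among the 6 glypicans, heparan sulfate proteoglycans of the cell surface, GPC5 and GPC6 spanned 1.36 and 1.12 Mb and GPC2 6.62 kb, at 1713, 1695 and 1731 coding bases. Of the 6 netrin receptors, DCC (1.57 Mb) and UNC5D (607 kb) were members, and UNC5A spanned 65.1 kb.

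Receptor tyrosine phosphatases of types IIA and IIB, which act in cell contact, gave 4 members of 7 (PTPRD, PTPRT, PTPRM and PTPRK), and PTPRG was 1 of 2 of type V. ROBO receptors and SLIT ligands gave ROBO1, ROBO2 and SLIT3 of 7. ERBB4 was the single member among 4 ERBB receptors, at 1.13 Mb, and the neuregulins that bind it gave NRG1 (1.06 Mb) and NRG3 (1.09 Mb) of 4. Contactins gave CNTN4 and CNTN5 of 6, contactin-associated proteins CNTNAP2 and CNTNAP5 of 4 found, and cadherins CDH8, CDH12, CDH13 and CDH18 of 19. Metabotropic glutamate receptors gave GRM5, GRM7 and GRM8 of 8, kainate receptors GRIK2 of 5, and AMPA and NMDA receptors none of 4 and 7. Voltage-gated calcium channel pores gave none of 10, with 491 kb the widest, and their alpha-2-delta subunits CACNA2D3 of 4. Scaffolds gave DLG2 of 5, MAGI1 and MAGI2 of 3, and DLGAP1 and DLGAP2 of 4. Dystrophin and its partners gave DMD, UTRN, SGCD and SGCZ of 16 found.

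Nuclear and signaling families were split as well. SOX5 and SOX6, transcription factors of cartilage and glia, were 2 of 3 in their group, FOXP1 and FOXP2 2 of 4, RORA and ESRRG 2 of 6 nuclear receptors, and RBFOX1 1 of 3. PDE1C, PDE4B and PDE4D were 3 of 18 phosphodiesterases, PRKG1 1 of 2 cGMP-dependent kinases and PRKCE 1 of 9 protein kinase C genes. DPP6, DPP10 and KCNIP4 were 3 of 9 Kv4 potassium channels and their partners. Genes known to lie at common fragile sites gave 20 of 21, but such genes are known in part for their size, so that list is not independent of span. They included FHIT (1.44 Mb), WWOX (961 kb), IMMP2L, MACROD2 and LRP1B.

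None of 30 genes listed for the airway was a member, against 1.25% of all protein-coding genes. At that share a list this short can hold none. The list held secretory and ion transport genes and also cell markers such as KRT5, ACTA2 and FOXJ1. The median span of the 30 genes was 32.1 kb and the widest was SLC4A4, a sodium bicarbonate cotransporter, at 408 kb. CFTR spanned 190 kb in 27 exons. Examples of members with a place in secretion or ion transport, picked from a larger number, were CHRM3, KCNMA1, ITPR2 and SLC9A9. CHRM3, the muscarinic receptor through which acetylcholine stimulates glands, spanned 545 kb in 7 exons with 2028 coding bases. KCNMA1 spanned 761 kb in 32 exons, and ITPR2, a receptor that releases stored calcium, 530 kb in 57 exons. SLC9A9, an endosomal sodium-proton exchanger, spanned 674 kb in 17 exons. CA10, a carbonic anhydrase-related protein (640 kb, 11 exons), was also a member, but is assigned no such place here. In CHRM3, 40.0% of the span lay before the start codon, and its 3′ UTR measured 9606 bases.

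Chromosome 13 carried 36, chromosome 1 25, chromosome 9 20 and chromosome 15 19, whereas chromosome 12 carried 2 (CA10 and BCAS3) and the Y chromosome none. As a share of protein-coding genes, they ranged on the autosomes from 0.18% on chromosome 12, which had 18.2 protein-coding genes per Mb, to 3.72% on chromosome 11, which had 4.08 per Mb. They covered 13.9% of chromosome 15, 13.8% of chromosome 13 and 1.98% of chromosome 12. The X chromosome carried 12, among them DMD, IL1RAPL1, IL1RAPL2, DIAPH2, FRMPD4, TENM1, PCDH11X, MID1, DACH2, ARHGAP6 and ZC3H12B. A single member lay on an unplaced scaffold. Of the 258 members, 124 were on the plus strand.

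**Figure D4:**
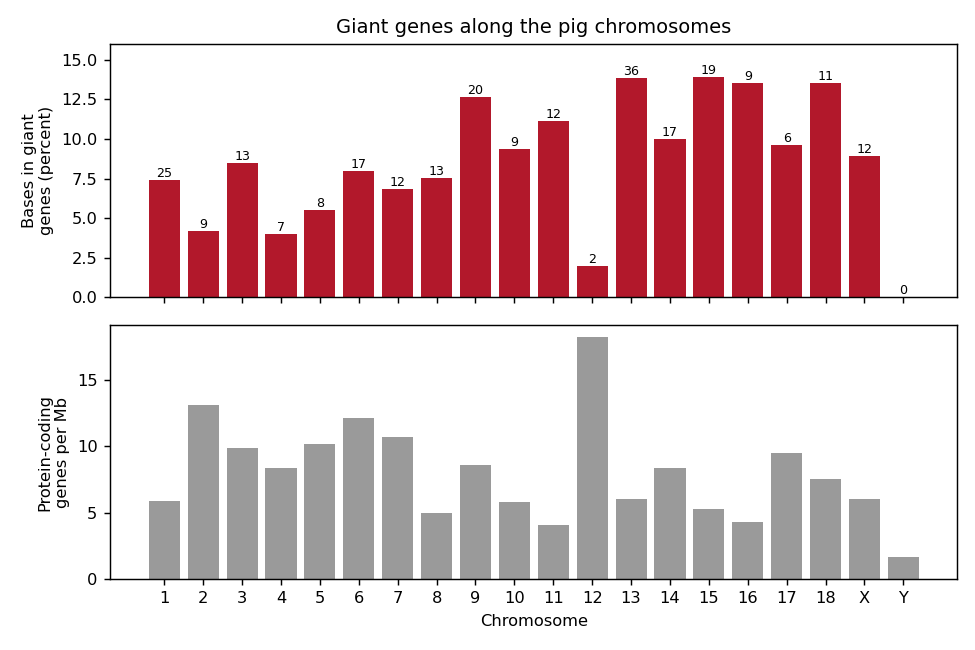
Upper, the percent of each chromosome covered by giant genes, with the number of giant genes above each bar. Lower, protein-coding genes per Mb. Coverage was 13.9% on chromosome 15 and 1.98% on chromosome 12, which had the most coding genes per Mb (18.2).

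The median GC content of a member was 38.9% (quartiles 36.7% and 42.5%), against 40.8% in genes of 200 to under 500 kb, 46.7% in all genes and 41.8% of the chromosomes as a whole. Coding bases of members were richer in GC, with a median of 50.3%, against 51.0% in genes of 200 to under 500 kb and 54.5% in all genes. CADM2 was lowest at 33.4% and SORCS2, a sorting receptor, highest at 58.3%. Repeats marked in the assembly by lower-case letters made up a median of 33.1% of a member. The median was 33.6% in genes of 200 to under 500 kb and 27.5% in all genes, against 36.1% of the chromosomes.

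Coding neighbors were far away. The nearest protein-coding gene outside a member lay at a median of 68.0 kb (quartiles 21.2 and 160 kb), against 28.2 kb for genes of 200 to under 500 kb and 7.74 kb for all genes. Counted on both sides out to 1 Mb, a median of 9 protein-coding genes started near a member, against 25 near any gene. The median was 12 for genes of 200 to under 500 kb. Around members the upstream side was the emptier one. The next coding gene lay at a median of 196 kb before the 5′ end and 100 kb after the 3′ end. These medians were 78.7 and 52.6 kb for genes of 200 to under 500 kb, and 17.7 and 14.5 kb over all genes. For 23 members no coding gene lay within 500 kb on either side, and the same count over all genes is not given here. The most isolated were NCAM2, a neural adhesion molecule (2176 kb from TMPRSS15), CDH8 (2138 kb from CDH11), ADGRL2, a latrophilin (1835 kb), CSMD3 (1485 kb from TRPS1) and LRRC4C (1423 kb from API5).

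**Figure D5:**
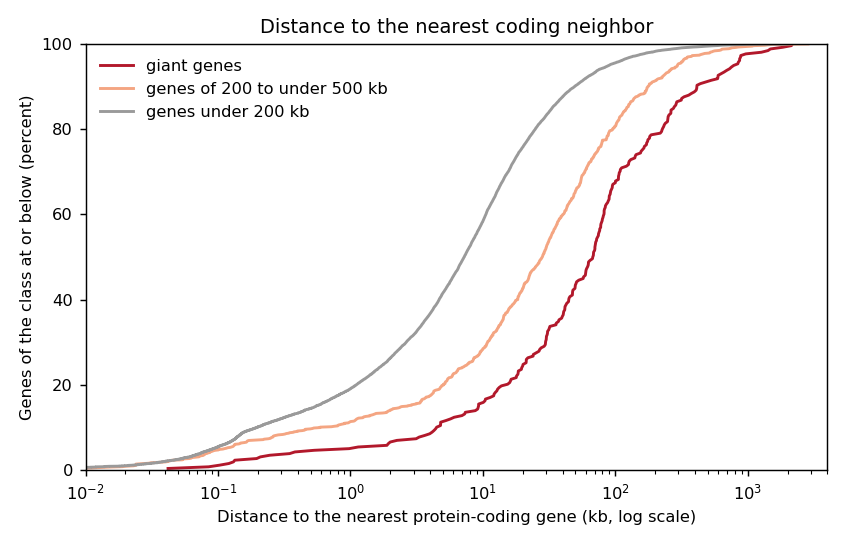
Cumulative percent of genes (vertical axis) by distance to the nearest protein-coding gene that does not overlap (horizontal axis, kb, log scale), for giant genes (red), genes of 200 to under 500 kb (orange) and genes under 200 kb (grey). The curve of giant genes lies to the right, with a median of 68.0 kb against 28.2 kb for genes of 200 to under 500 kb.

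Some members had a neighbor at close range. SUGCT began 42 bases from MPLKIP, HDAC9 85 bases from PRPS1L1, PLCL1 103 bases from BOLL and STAG1 121 bases from NCK1, each in head-to-head orientation, with the 5′ ends facing. BCAS3 ended 131 bases from LOC110256170, in tail-to-tail orientation. WWOX ended 196 bases from MAF, a transcription factor gene on the opposite strand. In all, the next upstream coding gene lay under 1 kb away for 9 of 257 members (3.50%), against 11.8% of all genes. In part, 24 members overlapped 1 or more coding genes, by 67 bases between LRBA and DCLK2 and by 225 kb between TTC28 and CHEK2. The same count over all genes is not given here. MTERF1 and CDK14 overlapped by 22.7 kb on opposite strands and were the members that overlapped each other.

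Members also lay side by side. In 17 pairs, formed by 34 genes, a member was the next coding gene of another, and in 16 of them this held in both directions. Several pairs joined relatives or partners. NTM and OPCML, both IgLON proteins, were tail to tail on chromosome 9 with 70.2 kb between them. ROBO1 and ROBO2 were tail to tail on chromosome 13 at 886 kb, GPC5 and GPC6 followed each other on chromosome 11 at 286 kb, CDH12 and CDH18 on chromosome 16 at 869 kb, and SORCS1 and SORCS3 were tail to tail on chromosome 14 at 1277 kb. FHIT and PTPRG stood head to head on chromosome 13 at 248 kb. The closest pair was ARHGAP6 and MID1 on the X chromosome, 4801 bases apart. The pair that held in 1 direction only was EYS and ADGRB3, 2236 kb apart, because LOC110259411, which overlapped ADGRB3 by 249 bases, was the next coding gene of EYS.

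Other genes lay wholly within the members. A gene with exons was found inside 119 of 258 members (46.1%, exact 95% interval 39.9% to 52.4%), 200 genes in all, or 0.93 per Mb of span. In genes of 200 to under 500 kb, 305 of 993 (30.7%) held one, at 1.54 per Mb. The 200 genes were 129 long noncoding RNAs, 34 protein-coding genes, 18 microRNAs, 14 variable (V) segments of antigen receptors, 3 transcribed pseudogenes and 2 tRNAs. On the strand opposite to the host lay 127 of them (63.5%), against 69.8% in genes of 200 to under 500 kb. The longest introns took up 32.2% of the summed span and held 81 of the 200 genes (40.5%). LOC102158035 on chromosome 7 held the most, 18, and all 14 V segments were among them, on its own strand, where its second intron covered 551 kb. Without this model the density was 0.85 per Mb, 126 of 182 genes (69.2%) were on the opposite strand, and the longest introns held 63 of 182 (34.6%) in 32.0% of the summed span. Next were PDE4D with 8, GALNTL6 with 5, and CCDC85A, DSCAM and RASGEF1B with 4 each.

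Several of the 34 coding genes inside members were compact. The coding bases of 20 of them (58.8%) lay in a single exon, against 15.3% of all protein-coding genes, and 25 of the 34 were on the opposite strand. Leucine-rich repeat genes lay in introns of several hosts: LRRTM3 was in intron 8 of CTNNA3, LRRTM1 in intron 7 of CTNNA2, FLRT3 in intron 3 of MACROD2, LRRN3 in intron 5 of IMMP2L and LRTM1 in intron 27 of CACNA2D3, each opposite to the host. The paralogous genes MAB21L1 and MAB21L2 lay in NBEA (intron 42) and LRBA (intron 40), which are themselves paralogs, again on the opposite strand. AMELX, the enamel protein amelogenin, was in intron 1 of ARHGAP6, and CSTF2T, a cleavage stimulation factor subunit, in intron 3 of PRKG1. These genes were singled out after their positions were seen.

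The 18 microRNAs lay in 14 members, and 12 of them were on the strand of the host. The mature sequences below are shown because each lies within a host on the same strand. They were read from the Sscrofa11.1 assembly at RefSeq coordinates, 5′ to 3′ in DNA letters, and the seed (bases 2 to 8) is in capitals.
miR-204 in TRPM3 intron 6, chr1:224065550-224065571 (minus strand): tTCCCTTTgtcatcctatgcct
miR-218b in SLIT3 intron 14, chr16:55115936-55115957 (plus strand): tTGTGCTTgatctaaccatgtg
miR-28-5p in LPP intron 7, chr13:126282180-126282201 (plus strand): aAGGAGCTcacagtctattgag
miR-708-5p in TENM4 intron 1, chr9:13780223-13780245 (minus strand): aAGGAGCTtacaatctagctggg
miR-582 in PDE4D intron 1, chr16:38580354-38580375 (minus strand): tAACCGGTtgaacaactgaacc
miR-383 in SGCZ intron 1, chr17:2698051-2698071 (minus strand): cCACAGCActgcctggtcaga
miR-99a in LOC106508546, chr13:181302494-181302515 (plus strand): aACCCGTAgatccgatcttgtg
let-7c in LOC106508546, chr13:181303224-181303245 (plus strand): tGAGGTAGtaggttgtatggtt

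miR-28-5p and miR-708-5p shared the seed AGGAGCT, although their hosts, LPP and TENM4, are on different chromosomes. miR-204 sat within an 849 kb gene for a cation channel, TRPM3, and miR-218b within SLIT3 (670 kb), which encodes a secreted ligand of ROBO receptors. miR-99a and let-7c lay in the gene row of LOC106508546 but not within an intron of its longest coding transcript. DNM3, a dynamin, held MIR214 and MIR199A-1 in intron 15 on the strand opposite to its own.

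RefSeq's records of RNA-seq support differed with gene size. For 226 members (87.6%) the longest coding transcript carried a statement of how many pig RNA-seq samples supported all of its introns. Such a statement was present for 89.3% of genes of 200 to under 500 kb and 67.6% of all genes. Where it was present, the median was 15 samples in members (quartiles 7 and 31.8). It was 25 in genes of 200 to under 500 kb and 75 in all genes. The other 32 members, TENM2 among them, carried none. EXOC4, an exocyst subunit, had the most at 181 samples. Exon number, which is higher in members, enters this count, and its part was not tested. The libraries of the present study were not among the values used here.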

How the data were processed

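SMG cells of 4 CF and 4 WT newborn pigs were sequenced from the 3′ end by the authors. The deposited file is their gene annotation, whose values are coordinates counted from 1 on Sscrofa11.1. The authors edited the RefSeq pig annotation (3′ UTRs, overlapping models, gene names) and, per the labels and methods, mapped with Cell Ranger 3.0.2. It holds no read counts, so depth is unknown and no value differs between animals.

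Span was end minus start plus 1 of the gene row. The transcript with the longest coding sequence (ties by exon number, then span) stood for a gene, and exon gaps under 30 bases were not introns. Protein-coding rows without a coding transcript (5) entered only the total of 20679. Neighbors were protein-coding genes that did not overlap. Genes inside had exons and lay wholly within the span. GC, repeats, gaps (runs of over 10 N) and sequences came from the RefSeq assembly of the same build. Promoter and protein sequences were not used here.

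No test was run, since a reference genome has no replicates. Genes were described by counts, medians and quartiles beside genes of 200 to under 500 kb and all genes. Exact (Clopper-Pearson) 95% intervals cover counting of genes only. They treat genes as independent and are no test between classes. Named genes were the widest, those nearest the threshold, the extremes of each measure, family members of 500 kb or more and models unlike RefSeq. Some genes that this rule names are not reported here. Others are examples picked after their values were seen. The members, families and function classes were chosen with earlier results of these data known. The measures were tested mostly on toy gene models with known answers, and exon and intron sizes also on 500 simulated gene models (23 of 23 checks met). Python 3.11.15 was used with scipy 1.17.1, numpy 2.4.6, pysam 0.24.0 and matplotlib 3.10.9.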

Additional observations from a re-analysis of the deposited data

How the results depend on the processing

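Of 28 alternative settings over 12 results, 18 left the value within the limits set for it (1.5 times for a count, 1.1 times for a median, the exact 95% interval for a share, 0.1 for a rank correlation) and none changed a sign. The other 10 moved it. A threshold of 400000 bases gave 414 genes and one of 1000000 bases gave 61, in place of 258. The median exon number was 23.5 with the exons of all transcripts merged, in place of 18. The median longest intron was 198066 bases between coding exons, in place of 221223. The median exonic share was 0.88% with the exons of 1 transcript, in place of 1.33%. Between coding exons the longest intron was among the first 3 in 184 genes, in place of 167, of 254 genes with such an intron. Members that held another gene numbered 31 for protein-coding genes, 148 with rows without exons included and 100 for genes wholly inside 1 intron, in place of 119. The nearest neighbor lay at a median of 31938 bases with genes of any type, in place of 67953. The count of members in families and gene lists on the widest coding transcript, 97, was an alternative chosen after seeing the data. No paired analysis was possible because the result comes from no test and the file holds no values per animal. The file holds no read counts, so no limit set by depth can be given.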

Other observations

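Long noncoding RNA genes reached the same size. Of 5605 long noncoding RNA genes, 38 had a gene row of 500 kb or more, the widest being LOC102160854 on chromosome 9 at 1.31 Mb, and no gene of the other noncoding types did. The symbol LRMDA was annotated among them, at 1.09 Mb on chromosome 14. They had few exons, with 3 to 18 in the transcript with the most, and 16 of the 38 overlapped a protein-coding gene.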
